A study of Mus musculus with 6 samples.

Results

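The 9 mouse genes described here sense sterol or govern its uptake and export: Srebf1, Srebf2, Scap, Insig1, Insig2, Mylip, Nr1h2, Abca1 and Abcg1. They were chosen by name, and each had its own gene row among the 22095 gene rows of the table. All libraries came from naive CD8 T cells of C57BL/6 mice, an inbred laboratory strain, with the genotype given as wild type. The cells had been purified from the spleen and stimulated for 48 h through CD3 and CD28 with antibodies, in medium with serum and IL-2. In 3 libraries (DMSO) the medium held the solvent, and in 3 (ponatinib) it held 10 nM ponatinib, a multi-kinase inhibitor developed against BCR-ABL. The labels do not give the age or number of the mice, nor do they say that replicates were separate mice or cultures, so that the p-values reflect the spread of these libraries alone, which may be technical. Levels are in TPM, scaled to a fixed sum per library and for transcript length, so that genes can be compared with one another within a library.

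Cells hold membrane cholesterol steady by reading it in the endoplasmic reticulum. When sterol is low, the escort protein SCAP carries the SREBP precursors to the Golgi, where proteases free their transcription factor part, and when sterol is high, INSIG proteins hold SCAP back. SREBP2 drives mainly cholesterol synthesis and uptake, and SREBP1 mainly fatty acid synthesis. Excess sterol in the form of oxysterols activates LXR, which raises the export pumps ABCA1 and ABCG1, the SREBP1c form of Srebf1, and MYLIP (IDOL), a ubiquitin ligase that removes lipoprotein receptors from the surface. Activated T cells switch SREBP on to build membrane for division, and LXR is known to hold back their proliferation.

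With ponatinib, the gene rows of both SREBP genes fell, Srebf1 to 0.650 and Srebf2 to 0.776 of the mean level in DMSO. The export gene Abcg1 fell to 0.733 of the DMSO mean, and Mylip rose 3.06-fold from a level near 1 TPM. Scap, Insig1, Insig2 and Nr1h2 did not pass the test. Abca1, at less than 1 TPM on average, was outside the main test. Of the 9 genes, 8 averaged 1 TPM or more over the 6 libraries and were tested, and Mylip reached that minimum only through the ponatinib group. Of the 8, 1 was higher and 3 were lower by limma with a Benjamini-Hochberg adjusted p under 0.05. Over all 10039 gene rows tested 23.9% were higher and 9.54% lower, 33.4% in all. The median log2 fold change was -0.21 over the 8 and 0.09 over all rows tested. The DMSO and ponatinib values did not overlap in 5 of the 9, Abca1 included, with 1 of them higher and 4 lower. Over all rows tested the groups did not overlap in 34.5% with higher and 14.9% with lower values, 49.4% in all. When libraries were rescaled by medians of ratios, 14.9% of all rows were higher and 15.5% lower, so that higher rows made up 49.1% of the calls in place of 71.5%, while 1 of the 8 genes was again higher and 3 lower.

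DMSO replicate 3 stood apart from the other libraries, at -19.6 on the second principal component (17.3% of the variance) against 9.38 and 12.99 for the other DMSO libraries. Its mitochondrially encoded genes held 4.78% of TPM, against 7.16% to 10.7% in the other 5 libraries. All 10 CD8 T cell markers were present, summing to 3606 to 3664 TPM with DMSO and 4056 to 4424 TPM with ponatinib. Of the 10, 4 were higher in every ponatinib library than in any DMSO library, 1, Cd2, was lower, and the others overlapped. Over all rows tested, 34.5% were higher and 14.9% lower in this way. The summed markers of B cells, of CD4 T cells, of NK cells and of erythroid cells and platelets were higher in every ponatinib library than in any DMSO library, and those of myeloid and of dendritic cells overlapped between the groups. The 9 myeloid markers summed to 3.47 to 6.56 TPM with DMSO and 5.38 to 8.10 TPM with ponatinib, and the 9 B cell markers to 231 to 254 and 282 to 308 TPM, mostly Ighm and Cd74. The myeloid gene Csf1r reached at most 0.168 TPM. The 4 markers of CD4 T cells summed to 5.21 to 9.53 TPM with DMSO and 16.4 to 19.7 TPM with ponatinib, the 4 of NK cells to at most 0.448 and 0.763 TPM, the 5 of dendritic cells to at most 1.18 and 1.56 TPM, with Siglech at 0 throughout, and the 6 of erythroid cells and platelets to at most 1.20 and 4.87 TPM. In bulk RNA, fewer cells of a type and less RNA per cell cannot be told apart.

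The promoters of 4 of the genes are shown. Srebf1 has several start sites, and its row next to the inner one moved by another amount than its gene row. No row is known to measure the outer start alone. Both SREBP genes fell, and Abca1 and Mylip, 2 genes known as LXR targets, lay on opposite sides of the DMSO level. Sequences are from RefSeq on GRCm38.p6, read on the gene's strand up to the start site, or for Srebf2 up to the first annotated exon. Capitals mark matches on either strand to 3 motifs: a sterol regulatory element (TCACNCCA), an LXR element made of 2 half-sites (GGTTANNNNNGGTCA) and the CCAAT box (CCAAT) bound by NF-Y, a partner of SREBP. None of the motifs overlap here. The inner Srebf1 start site, at chromosome 11 position 60210471 on the minus strand, gives SREBP1c, and the outer one shown, at 60220627, gives SREBP1a.
Srebf1 inner start, chr11:60210472-60210721: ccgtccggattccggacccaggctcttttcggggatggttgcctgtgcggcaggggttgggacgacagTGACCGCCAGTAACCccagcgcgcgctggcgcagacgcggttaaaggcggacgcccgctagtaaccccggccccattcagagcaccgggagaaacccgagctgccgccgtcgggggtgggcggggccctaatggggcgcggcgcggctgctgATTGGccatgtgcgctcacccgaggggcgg
Srebf1 outer start, chr11:60220628-60220877: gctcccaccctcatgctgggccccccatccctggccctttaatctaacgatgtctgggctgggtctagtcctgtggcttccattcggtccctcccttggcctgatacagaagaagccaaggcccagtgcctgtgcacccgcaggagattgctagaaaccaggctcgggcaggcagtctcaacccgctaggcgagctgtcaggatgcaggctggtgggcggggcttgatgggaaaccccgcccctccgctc
Srebf2, chr15:82147019-82147180: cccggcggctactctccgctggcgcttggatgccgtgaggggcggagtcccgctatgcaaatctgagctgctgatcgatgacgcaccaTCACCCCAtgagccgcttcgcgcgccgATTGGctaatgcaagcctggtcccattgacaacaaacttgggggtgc
Abca1, chr4:53159896-53160145: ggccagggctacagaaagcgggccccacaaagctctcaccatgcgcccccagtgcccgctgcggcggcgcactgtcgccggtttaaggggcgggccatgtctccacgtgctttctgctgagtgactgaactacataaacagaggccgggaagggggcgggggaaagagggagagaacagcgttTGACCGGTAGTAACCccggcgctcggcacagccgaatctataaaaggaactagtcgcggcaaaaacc
Mylip, chr13:45389492-45389741: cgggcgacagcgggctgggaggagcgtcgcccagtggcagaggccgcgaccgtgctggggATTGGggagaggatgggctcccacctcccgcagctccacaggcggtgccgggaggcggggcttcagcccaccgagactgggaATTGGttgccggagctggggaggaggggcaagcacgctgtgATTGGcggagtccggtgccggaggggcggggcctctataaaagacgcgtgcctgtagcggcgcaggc

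The LXR motif stood in the window of the inner Srebf1 start site and in that of Abca1. It was found in none of the other 10 windows searched for these genes, and in 0.0457% of the 250-base windows before all 32851 RefSeq start sites. The outer Srebf1 window held none of the 3 motifs. The sterol regulatory element stood in the Srebf2 window alone among the 12 searched, beside a CCAAT box, and in 3.67% of all windows. The CCAAT box stood in 6 of the 12 windows, from 5 genes, and in 33.8% of all windows. Among these, it stood 3 times in the Mylip window, 3 times in an Insig2 window and once in the inner Srebf1 window. The motifs were written down with the sequences in view, and a match is a description of the letters, not a binding site.

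**Figure D1:**
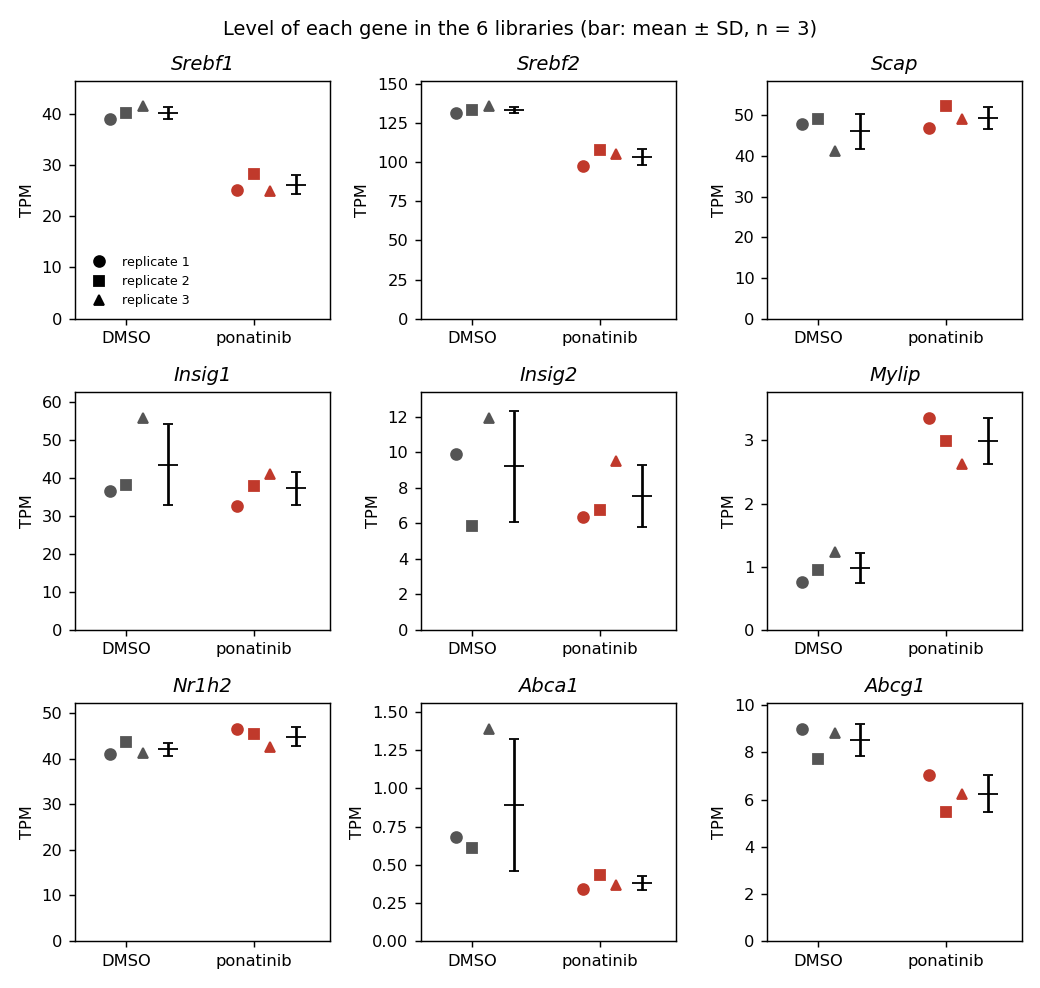
Level of each gene in TPM (vertical axes, each from 0) in the DMSO libraries (grey) and the ponatinib libraries (red), with 1 symbol per replicate number and the mean ± SD beside them. Srebf1, Srebf2, Abca1 and Abcg1 lie lower in every ponatinib library than in any DMSO library, Mylip lies higher, and the other 4 genes overlap between the groups.

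Srebf1 encodes SREBP1 (ENSMUSG00000020538, minus strand of chromosome 11, 60199089 to 60222581 of GRCm38). The DMSO libraries held it at 39.0, 40.1 and 41.4 TPM, and the ponatinib libraries at 25.1, 28.3 and 25.0 TPM. Every ponatinib library lay below every DMSO library, and the replicates of each group were close together. The group means were 40.2 ± 1.20 and 26.1 ± 1.85 TPM (SD, n = 3 each). The log2 fold change of this gene row was -0.60 (SE 0.07, limma adjusted p = 8.67e-04). With transcript rows added to their genes it was -0.84 (limma adjusted p = 2.94e-04), where 8.76% of all rows were lower.

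Srebf2 encodes SREBP2 (ENSMUSG00000022463, plus strand of chromosome 15, 82147181 to 82205379) and was the most abundant of the 9 genes. The DMSO libraries had 132, 133 and 136 TPM and the ponatinib libraries 97.9, 108 and 105 TPM. The groups again did not overlap, with means of 134 ± 2.03 and 104 ± 5.13 TPM. The log2 fold change was -0.36 (SE 0.05, limma adjusted p = 0.00207). Without DMSO replicate 3 the log2 fold changes of Srebf1 and Srebf2 were -0.58 and -0.35 (limma adjusted p = 5.90e-04 and 0.00163), where 35.3% of all rows were higher and 10.1% lower.

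The gene-row levels of both SREBP genes were also set against each other within each library, which does not depend on the scaling between libraries. Srebf1 stood at 0.297, 0.301 and 0.305 of the Srebf2 level with DMSO and at 0.257, 0.262 and 0.237 with ponatinib. Srebf1 thus lay lower relative to Srebf2 in each ponatinib library than in any DMSO library. The difference in mean log2 ratio was -0.24, and the exact two-sided permutation p was 0.1, the smallest that 3 against 3 libraries allow. With transcript rows added to their genes the difference was -0.48, with the same exact permutation p.

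Beside its gene row, Srebf1 had 2 transcript rows in the table, Srebf1-207 and Srebf1-203, outside GENCODE's basic set. Srebf1-207 starts with an exon at 60210336 to 60210465, next to the inner start site printed above, and shares 16 of its 18 exons with Srebf1-201, the basic transcript of the outer start, whose first exon lies at 60220453 to 60220604. Srebf1-207 was at 21.4, 17.8 and 21.8 TPM with DMSO and at 6.92, 6.40 and 10.1 TPM with ponatinib, with means of 20.3 ± 2.23 and 7.80 ± 2.00 TPM. Its highest ponatinib value was well under its lowest DMSO value. In a fit of gene and transcript rows together its log2 fold change was -1.30 (SE 0.17, limma adjusted p = 0.00571), and that of the Srebf1 gene row was -0.60 (adjusted p = 0.00387).

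The inner-start row was therefore a smaller part of Srebf1 with ponatinib. Its level was 0.549, 0.444 and 0.526 of the gene row with DMSO and 0.275, 0.226 and 0.404 with ponatinib. The groups did not overlap, and the mean log2 ratio differed by -0.69 (exact two-sided permutation p = 0.1, the smallest possible here). As a share of gene and transcript rows summed, Srebf1-207 held 29.2% to 33.4% with DMSO and 17.8% to 27.5% with ponatinib. Srebf1-203, which lacks its start in the annotation, was at 3.60, 2.98 and 4.40 TPM with DMSO and 1.39, 1.25 and 1.68 TPM with ponatinib. It also fell (log2 fold change -0.93, SE 0.17, limma adjusted p = 0.0150), a call that was lost without DMSO replicate 1 (adjusted p = 0.0569) or without ponatinib replicate 2 (0.0588). These transcripts share most of their sequence with the gene row's transcript, so reads of the shared exons had to be divided between rows by estimation, and the 3' end of Srebf1-207 is incomplete in the annotation.

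**Figure D2:**
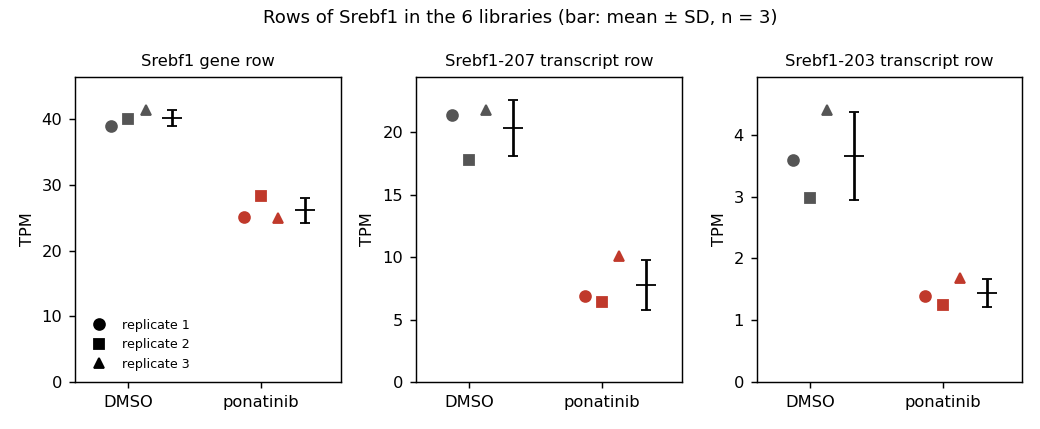
TPM of the Srebf1 gene row and of its transcript rows (vertical axes, each from 0) in DMSO (grey) and ponatinib (red) libraries, with the mean ± SD beside the 3 replicates. The mean falls from 40.2 to 26.1 TPM in the gene row and from 20.3 to 7.80 TPM in Srebf1-207, the row next to the inner start site.

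Together the 9 genes had 22 transcript rows, none in the basic set, of which 5 were at 0 in all libraries. In the fit of gene and transcript rows together 10 of the 22 reached a mean of 1 TPM and were tested. The 2 Srebf1 rows were lower and 0 were higher, against 5.72% lower and 14.6% higher of all 14221 rows in that fit. Scap-208 was at 9.99, 7.10 and 8.72 TPM with DMSO and 13.5, 10.9 and 10.8 TPM with ponatinib. Its groups did not overlap, but it did not pass the test (log2 fold change 0.41, limma adjusted p = 0.0915). The 2 tested Srebf2 transcript rows, at means of at most 2.50 TPM, did not pass either.

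Scap encodes the SREBP escort protein (ENSMUSG00000032485, plus strand of chromosome 9, 110333288 to 110384950). Its level was 48.0, 49.2 and 41.2 TPM with DMSO and 46.9, 52.2 and 49.1 TPM with ponatinib. The groups overlapped, and DMSO replicate 3 was the lowest library. The log2 fold change was 0.10, with a 95% interval of -0.08 to 0.29 (limma adjusted p = 0.366), next to the median of 0.09 over all rows tested.

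Insig1 encodes the INSIG protein that is itself an SREBP target (ENSMUSG00000045294, plus strand of chromosome 5, 28071363 to 28078662). It was at 36.6, 38.2 and 56.0 TPM with DMSO and at 32.7, 38.1 and 41.2 TPM with ponatinib. The groups overlapped, and DMSO replicate 3 was the highest library by a wide margin. The log2 fold change was -0.20, with a 95% interval of -0.57 to 0.17 (limma adjusted p = 0.370). Without DMSO replicate 3 it was -0.01 (adjusted p = 0.945).

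Insig2 encodes the second INSIG protein (ENSMUSG00000003721, minus strand of chromosome 1, 121304353 to 121332589). Its DMSO levels were 9.90, 5.82 and 12.0 TPM and its ponatinib levels 6.36, 6.76 and 9.54 TPM. These values overlapped widely. The log2 fold change was -0.23, with a 95% interval of -0.78 to 0.33 (limma adjusted p = 0.499), and -0.03 without DMSO replicate 3. When its 6 transcript rows were added to the gene row, Insig2 passed the test as lower (log2 fold change -0.55, limma adjusted p = 0.0454), as did 8.76% of all rows in that fit. The largest of these rows, Insig2-212, ranged from 5.69 to 9.65 TPM with DMSO and was 6.89, 4.40 and 0 TPM with ponatinib.

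Insig1 stood at 3.70 to 6.57 times the Insig2 level with DMSO and at 4.32 to 5.63 times with ponatinib. The ranges overlapped, and the mean log2 ratio differed by 0.03 (exact two-sided permutation p = 0.9). With transcript rows added the difference was 0.35 (exact permutation p = 0.4).

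Nr1h2 encodes LXR beta (ENSMUSG00000060601, minus strand of chromosome 7, 44549616 to 44553951). It was at 41.1, 43.6 and 41.4 TPM with DMSO and at 46.6, 45.5 and 42.5 TPM with ponatinib. Only ponatinib replicate 3 fell within the range of the DMSO libraries. The log2 fold change was 0.09, with a 95% interval of -0.04 to 0.23 (limma adjusted p = 0.266), and it equalled the median of all rows tested to 2 decimals. Nr1h3, which encodes LXR alpha, had a gene row but a mean under 1 TPM.

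Mylip encodes the ubiquitin ligase IDOL, which marks receptors of the LDL receptor family for degradation (ENSMUSG00000038175, plus strand of chromosome 13, 45389742 to 45412022). The DMSO libraries had 0.756, 0.951 and 1.23 TPM and the ponatinib libraries 3.36, 2.99 and 2.63 TPM. The lowest ponatinib library was above the highest DMSO library. The means were 0.978 ± 0.236 and 2.99 ± 0.364 TPM. The log2 fold change on the scale of TPM + 1 was 1.02 (SE 0.13, limma adjusted p = 0.00155), and 1.54 with a pseudocount of 0.1. Without DMSO replicate 3 it was 1.11. Mylip entered the main fit only through its ponatinib libraries. The fit with no filter gave the same log2 fold change of 1.02, with limma adjusted p = 0.00438. Some markers of other cells also lay above all DMSO libraries in every ponatinib library. These were 5 of 9 for B cells, 4 of 9 for myeloid cells and 3 of 4 for CD4 T cells. They also included 2 of 4 for NK cells, 3 of 6 for erythroid cells and platelets and 1 of 5 for dendritic cells. Below all DMSO libraries lay 1 myeloid and 1 CD4 T cell marker. Over all rows tested, 34.5% lay above and 14.9% below in this way. Many of these markers were too low to be among those rows. The part of such cells in the rise of Mylip was not tested.

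Abcg1 encodes a pump that moves cholesterol toward lipoproteins (ENSMUSG00000024030, plus strand of chromosome 17, 31057675 to 31117988). It was at 9.002, 7.72 and 8.83 TPM with DMSO and at 7.03, 5.46 and 6.24 TPM with ponatinib. The groups did not overlap, but ponatinib replicate 1 and DMSO replicate 2 were close. The means were 8.52 ± 0.693 and 6.24 ± 0.784 TPM, and the log2 fold change was -0.40 (SE 0.11, limma adjusted p = 0.0253). The call was lost without DMSO replicate 1 (adjusted p = 0.0879), without ponatinib replicate 2 or 3 (0.0953 and 0.0786), with no filter (0.0536) and in the fit of gene and transcript rows together (0.0537).

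Abca1 encodes the pump that loads cholesterol onto apolipoproteins (ENSMUSG00000015243, minus strand of chromosome 4, 53030787 to 53159895) and was the lowest of the 9 genes. It was at 0.681, 0.609 and 1.39 TPM with DMSO and at 0.339, 0.432 and 0.369 TPM with ponatinib. The groups did not overlap, and DMSO replicate 3 had about as much as the other DMSO libraries together. With no filter, its log2 fold change was -0.43 (SE 0.15, limma adjusted p = 0.0971), which did not pass the test, where 6.23% of all 15090 rows were lower. With no filter and without DMSO replicate 3 it was -0.25 and passed (adjusted p = 0.0188). The 9 myeloid markers did not move as one. In every ponatinib library 1, Mpeg1, was lower and 4, Lyz2, Cd68, Cd14 and S100a8, were higher, and the other 4 overlapped. Cd14 reached at most 0.034 TPM and S100a8 at most 0.592 TPM, both near 0. Over all rows tested, 34.5% were higher and 14.9% lower in this way. Mpeg1, chosen after its values were seen, was highest in DMSO replicate 3, at 4.29 TPM, and the part of such cells in the level of Abca1 was not tested.

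Abca1 stood at 0.0757, 0.0789 and 0.158 of the Abcg1 level with DMSO and at 0.0483, 0.0792 and 0.0592 with ponatinib. The ranges overlapped, and the mean log2 ratio, with 1 TPM added to each level, differed by -0.04 (exact two-sided permutation p = 0.9). With 0.1 TPM added in place of 1 the difference was -0.52 (exact permutation p = 0.3).

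**Figure D3:**
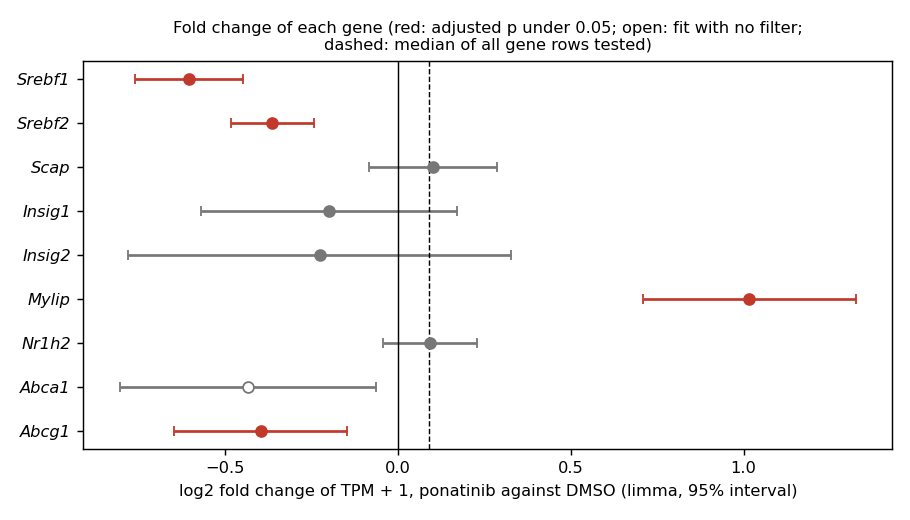
Log2 fold change of TPM + 1 with its 95% interval (horizontal axis) for each gene, ponatinib against DMSO, from limma. Red marks an adjusted p under 0.05, the open symbol marks Abca1 from the fit with no filter, and the dashed line is the median of all rows tested, 0.09, on which Scap and Nr1h2 lie.

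In order of gene-row level, Srebf2 led in both groups. With its transcript rows added, Srebf1 was at 60.8 to 67.6 TPM with DMSO and 33.4 to 36.7 TPM with ponatinib. Its place in the order given here thus holds for gene rows alone. With DMSO, Scap, Insig1, Nr1h2 and Srebf1 followed at means of 46.1, 43.6, 42.0 and 40.2 TPM, and each overlapped the next. With ponatinib the order was Scap, Nr1h2, Insig1 and Srebf1, at 49.4, 44.9, 37.3 and 26.1 TPM, and no neighbours among them overlapped. Insig2 and Abcg1 overlapped each other in both groups and lay under all of these. Mylip and Abca1 overlapped with DMSO, at means of 0.978 and 0.894 TPM, but not with ponatinib, at 2.99 and 0.380 TPM.

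Partners of these genes in sensing and handling sterols formed a list of 35, of which 30 were tested. Of these, 9 were higher and 3 lower, beside 23.9% higher and 9.54% lower of all rows, and the median was 0.04 on the log2 scale against 0.09 for all rows. Rescaled by medians of ratios, 6 were higher and 5 lower, beside 14.9% and 15.5% of all rows, with a median of -0.05 against 0.004. Without DMSO replicate 3, 11 were higher and 4 lower, beside 35.3% and 10.1% of all rows, with a median of 0.16 against 0.13. Rxra, which encodes the retinoid receptor that pairs with LXR, was at 3.87, 5.33 and 3.20 TPM with DMSO and at 22.1, 22.1 and 22.3 TPM with ponatinib. The ponatinib libraries were nearly equal and far above all DMSO libraries (log2 fold change 2.20, SE 0.14, limma adjusted p = 1.52e-04). Rxrb, the related receptor gene, named after its values were seen, was at 41.7 and 41.0 TPM and did not pass. Vcp, an ATPase that pulls INSIG-bound proteins out of the membrane for degradation, rose from 377 ± 9.28 to 442 ± 11.2 TPM, but was not called when libraries were rescaled by medians of ratios (limma adjusted p = 0.141) or quantiles (0.0801).

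Stard4, a cytosolic sterol carrier known as an SREBP2 target, fell from 52.9 ± 3.39 to 36.2 ± 2.74 TPM (log2 fold change -0.54). Scarb1, the receptor for high-density lipoprotein, fell from 44.2 ± 1.65 to 31.6 ± 2.45 TPM (-0.48). Among genes outside the naming rule, chosen after their values were seen, the site-1 protease gene Mbtps1, whose product makes the first cut in SREBP, was higher (log2 fold change 0.23, limma adjusted p = 0.0142), a call lost under both rescalings and without DMSO replicate 1 or ponatinib replicate 2 or 3. The site-2 protease gene Mbtps2 did not pass (0.04). Of the enzymes that esterify cholesterol, Soat2 was lower, at means of 5.03 and 1.78 TPM, and Soat1 did not pass, at 15.0 TPM in both groups. Lipa, which encodes the lysosomal hydrolase of cholesteryl esters, was higher (log2 fold change 0.39, limma adjusted p = 0.0144).

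Known SREBP targets were mostly lower. Of 20 sterol synthesis enzymes tested, 15 were lower and 0 higher, where 9.54% of all rows were lower and 23.9% higher, and their median was -0.46 against 0.09 for all rows. Fdps, which makes farnesyl diphosphate, had 354 to 359 TPM with DMSO and 130 to 157 TPM with ponatinib. Tm7sf2, a sterol reductase, fell from 12.0 ± 1.21 to 4.20 ± 0.873 TPM, and the log2 fold changes of the pathway enzyme genes Pmvk and Nsdhl were -0.98 and -0.92. Of 12 fatty acid synthesis genes tested, of 14 listed, 8 were lower and 1 higher, read against the same shares of all rows, and their median was -0.57. The desaturase genes Scd1, Fads2, Scd2 and Fads1 fell, with log2 fold changes of -4.32, -3.23, -2.16 and -0.60. Fasn, named after its value was seen, was higher (0.48). It was not called with medians of ratios, where 0 of the 12 and 14.9% of all rows were higher. Insig1, itself a known SREBP target, had a log2 fold change nearer to 0 than the median of either list. These lists describe genes whose fall was already known from these libraries.

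Genes listed as LXR targets did not move in 1 direction. Whether each responds to LXR in mouse CD8 T cells was not tested. Beside Abca1, Abcg1, Mylip and Srebf1, 12 others were listed, of which 5 reached the minimum level, with 2 higher and 2 lower, beside 23.9% and 9.54% of all rows, and their median was 0.33. Without DMSO replicate 3, 3 were higher and 2 lower, beside 35.3% and 10.1% of all rows. The median was then 0.56, against 0.13 for all rows. With 5 genes tested, both medians were the value of a single gene, Apoe, which lay near the minimum level. Arl4c, a small GTPase gene, was at 10.6, 10.5 and 16.8 TPM with DMSO and at 40.6, 30.4 and 29.0 TPM with the inhibitor (log2 fold change 1.35, SE 0.19, limma adjusted p = 0.00203). Smpdl3a, a phosphodiesterase gene, rose from 5.30 ± 0.707 to 12.3 ± 3.63 TPM. Lpcat3, which remodels membrane phospholipids, fell from 51.9 ± 1.35 to 32.5 ± 1.45 TPM. Scd1, which is also an SREBP1 target, fell as given above, and Apoe, at means of 1.03 and 1.53 TPM, did not pass. Without DMSO replicate 3 Apoe was called higher (log2 fold change 0.56, limma adjusted p = 0.0333), the added gene in that count. The other DMSO libraries held it at 0.577 and 0.835 TPM, so it reached the minimum there only through the ponatinib group. If genes had to average 10 TPM, 3 of the 12 were tested and their median was -0.66, against 0.10 for all rows. Scd1 stands in the fatty acid list as well, and Apoe and Nr1h3 among the partners. The genes that rose thus included Mylip, Arl4c and Smpdl3a, and those that fell Abcg1, the inner-start row of Srebf1, Lpcat3 and Scd1.

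**Figure D4:**
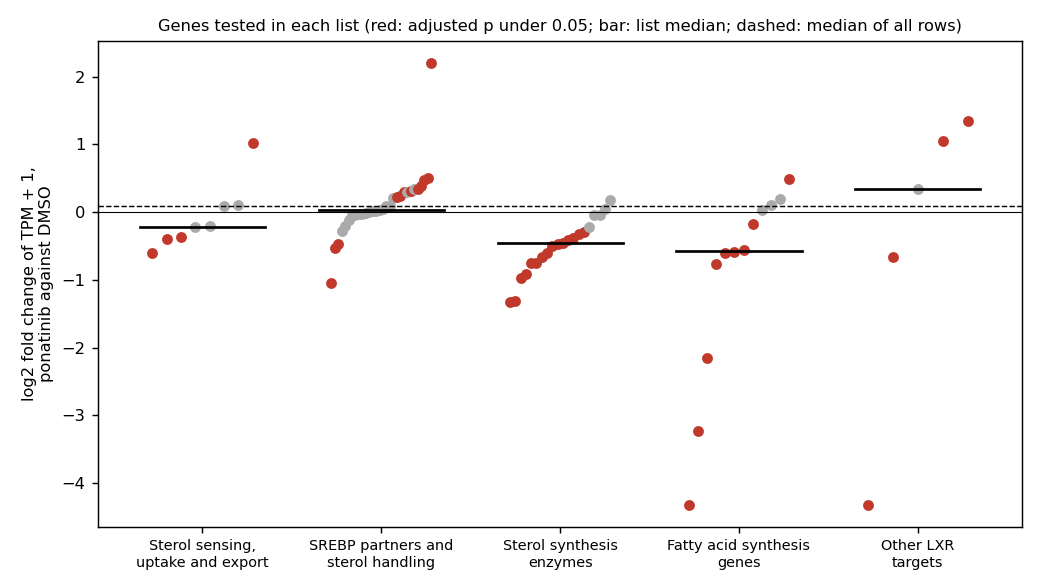
Log2 fold change of TPM + 1 (vertical axis), ponatinib against DMSO, of every gene tested in each list, ordered by value within the list. Red marks an adjusted p under 0.05, bars are list medians (-0.21, 0.04, -0.46, -0.57 and 0.33 from left to right) and the dashed line is the median of all rows, 0.09.

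Among all rows tested, the 3 whose levels followed Srebf1 most closely over the 6 libraries were Plod3, Amdhd2 and Tbl2, with Pearson correlations of log2(TPM + 1) of 0.997, 0.995 and 0.995. Plod3, a collagen-modifying enzyme gene, was at 17.3, 18.1 and 18.6 TPM with DMSO and 10.5, 12.4 and 11.1 TPM with ponatinib. For Srebf2 they were Agpat2, Prelid1 and Ppp1r35, each at 0.998. Agpat2, an enzyme gene of phospholipid and triglyceride synthesis, was at 19.99, 20.3 and 20.8 TPM with DMSO and 11.1, 12.9 and 12.9 TPM with ponatinib. These are the highest of many correlations over libraries that differ by treatment, and they are given as a description.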

How the data were processed

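RNA of mouse CD8 T cells was sequenced in 3 DMSO and 3 ponatinib libraries made with a NEBNext Ultra II RNA kit, per the labels' protocols, which do not state whether strand was kept. The authors deposited 1 table of TPM, named as normalized counts, in which each column sums to 1000000 over 22095 gene rows and 20977 transcript rows. Without giving roles, the submitters' processing notes list DESeq2 1.22.1, Salmon 1.5.1, fastp 0.19.5 and the GRCm38 build. How transcripts were summed to genes is not stated in the labels, and transcript rows held 6.76% to 7.10% of TPM. Identifiers were matched, without their version, to GENCODE mouse release 21 (GRCm38), which gave names and coordinates for 22011 gene rows. TPM keep no depth, so reads per library are unknown and no counting interval is given.

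Each gene was taken from its gene row. The 10039 rows averaging 1 TPM or more were compared on the scale of log2(TPM + 1), where changes of low genes come out too small, with limma 3.58.1 (lmFit, eBayes with intensity trend) in R 4.3.3, two-sided. A gene was called at a Benjamini-Hochberg adjusted p under 0.05 over all rows tested, and each adjusted p is from such a fit. Transcript rows were tested in a separate fit of gene and transcript rows together, added after the data were seen, as were the alternatives for lists and transcript rows. Ratios between genes in a library were compared with exact permutation tests over libraries (SciPy 1.17.1). Groups came from the sample titles. Replicate numbers were not used in the fit.

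The genes and lists were chosen with earlier results of these data known. All 9 genes were named whatever their result, up to 4 called genes with the smallest p of each list, the 3 rows most correlated with each SREBP gene, and transcript rows of at least 1 TPM in a group where they bear on a result. Alternatives were other pseudocounts, filters, scalings and moderation, transcript rows added to genes, a replicate block, and each library left out.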

Additional observations from a re-analysis of the deposited data

How the results depend on the processing

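Srebf1, Srebf2 and Mylip kept their direction and call under each alternative that tested them, including the joint fit of gene and transcript rows. Mylip was not tested with a minimum mean of 10 TPM, where 0 of the 9 genes were higher in place of 1. The number of lower genes was 3 with all libraries and 2 to 3 with 1 library left out, and the number of higher genes was 1 each time. With a minimum mean of 10 TPM or with no filter 2 were lower, and with transcript rows added 4. Scap, Insig1 and Nr1h2 passed under none of the alternatives, and Insig2 passed only with transcript rows added. The log2 ratio of Srebf1 to Srebf2 differed by -0.24 between groups, by -0.27 to -0.20 with 1 library left out and by -0.48 with transcript rows added. That of Insig1 to Insig2 differed by 0.03, by -0.15 to 0.21 with 1 library left out and by 0.35 with transcript rows added. That of Abca1 to Abcg1 differed by -0.04, by -0.15 to 0.12 with 1 library left out and by -0.52 with a pseudocount of 0.1. With transcript rows added, the log2 fold change of Srebf1 went from -0.60 to -0.84, and that of Srebf2 stayed at -0.36. That of Insig2 went from -0.23 to -0.55, and that of Insig1 stayed at -0.20. Why gene and transcript rows differed was not tested. The labels do not tie replicate numbers to a mouse or day, and deviations of same-numbered libraries from their group means correlated at -0.03, 0.06 and 0.01. With the replicate block 1 gene was higher and 3 were lower, as without it, and the ratios of Srebf1 to Srebf2, Insig1 to Insig2 and Abca1 to Abcg1 differed by -0.24, 0.03 and -0.04, where exact sign-flip tests of 3 pairs cannot go below 0.25. Rescaling by medians of ratios left 5 of the sterol handling partners lower in place of 3. It left 0 fatty acid genes higher in place of 1. In that fit 15.5% of all rows were lower and 14.9% higher. A minimum mean of 10 TPM left 1 other LXR target higher in place of 2. Sterol synthesis enzymes were lower in 13 to 16 of 20 and higher in 0 of 20 under each alternative, where 18 were tested at that minimum. The fall of Srebf1-207 was called with each library left out (log2 fold change -1.47 to -1.18), and its ratio to the gene row then differed by -0.90 to -0.52. Depth is unknown, so how far counting error limits Abca1 and Mylip was not measured.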
